A study of Arabidopsis thaliana with 60 samples.

Results

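The 12 libraries described here were taken from wild-type (Col-0) Arabidopsis leaves at 2 h and 4 h post-induction, out of 60 libraries in the whole series. They answer a question about timing, namely which genes joined, deepened or left the transcriptional response to MLACC between these 2 time points. MLACC is the coiled-coil domain of MLA, a barley intracellular immune receptor of the nucleotide-binding leucine-rich repeat (NLR) class, fused to the fluorescent protein mYFP. The plants were 4 weeks old and carried either DEXp:MLACC-mYFP or, as the control line, DEXp:mYFP. In both lines the transgene was driven by the dexamethasone-inducible pTA7002 system, and all plants received 1 µM dexamethasone by syringe infiltration into the leaf, so that infiltration and inducer were shared by MLACC and control samples. Each library held polyadenylated RNA from 6 leaf discs of 6 plants, with 3 biological replicates per line and time. The lines were homozygous transformants selected for a single insertion, and 1 line stood for each construct. How much MLACC protein each sample held was not measured in these tables and its part in any difference below was not tested; the transgene has no row of its own. The remaining libraries of the same table covered 0, 6 and 8 h, and a second table held ppsdes, a sextuple mutant that carries sid2-2, ein2-1 and dde2-2 together with sag101-2, pad4-1 and pen2-1, with DEXp:MLACC-mYFP plants and, as their control, non-transgenic ppsdes plants at the same times.

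NLR receptors switch on when they sense a pathogen effector, and in many NLRs of this class the coiled-coil domain alone is enough to set off defence and cell death. In leaves, the transcriptional part of such a response is known to begin with signalling genes: calcium-binding proteins, protein kinases, ERF and WRKY transcription factors, and the genes of jasmonate synthesis with the JAZ repressors that jasmonate itself induces. Salicylic acid synthesis through isochorismate, the phytoalexin and phenylpropanoid pathways, detoxifying enzymes and protein turnover belong to the effector side of defence, while photosynthesis and growth genes usually decline.

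For each of the 19654 genes with enough counts to be tested, out of 32678 in the table, growth of the MLACC effect was the log2 ratio of MLACC to mYFP at 4 h minus the same log2 ratio at 2 h. A gene was called where edgeR's quasi-likelihood test gave a Benjamini-Hochberg FDR below 0.01 and the log2 value exceeded 1 in size. Growth was called upwards for 1396 genes (7.1% of those tested) and downwards for 409 genes (2.08%). The effect itself was called upwards for 814 genes at 2 h (4.14%) and 4209 genes at 4 h (21.4%), and downwards for 23 genes at 2 h (0.117%) and 3456 genes at 4 h (17.6%). The list counts below are to be read beside these shares of all genes tested. Classes were then fixed by the 3 calls of growth, 2 h effect and 4 h effect, which share libraries and so are not independent. A gene joined where the effect was called at 4 h but not at 2 h and growth was called in the same direction. It deepened where all 3 calls were made in one direction and was held where both time points were called but growth was not. It left where the 2 h call was absent at 4 h and growth was called in the opposite direction. By this rule 1214 genes joined upwards, 132 deepened upwards, 628 were held upwards, 371 joined downwards, 13 were held downwards and 13 left. A further 49 genes were called at 2 h but not at 4 h without a growth call, and 2 were called at both times in opposite directions. Another 2234 genes were called upwards and 3071 downwards at 4 h alone without a growth call, so that a gene called only at 4 h was not thereby shown to have grown. Nor was a held gene shown to have stayed level, and the median growth of the genes held upwards was 0.83. The call rests on a spread estimated from all 30 wild-type libraries: with the 12 libraries alone 201 genes passed upwards and 32 downwards, of which 201 and 28 were among those above.

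**Figure D1:**
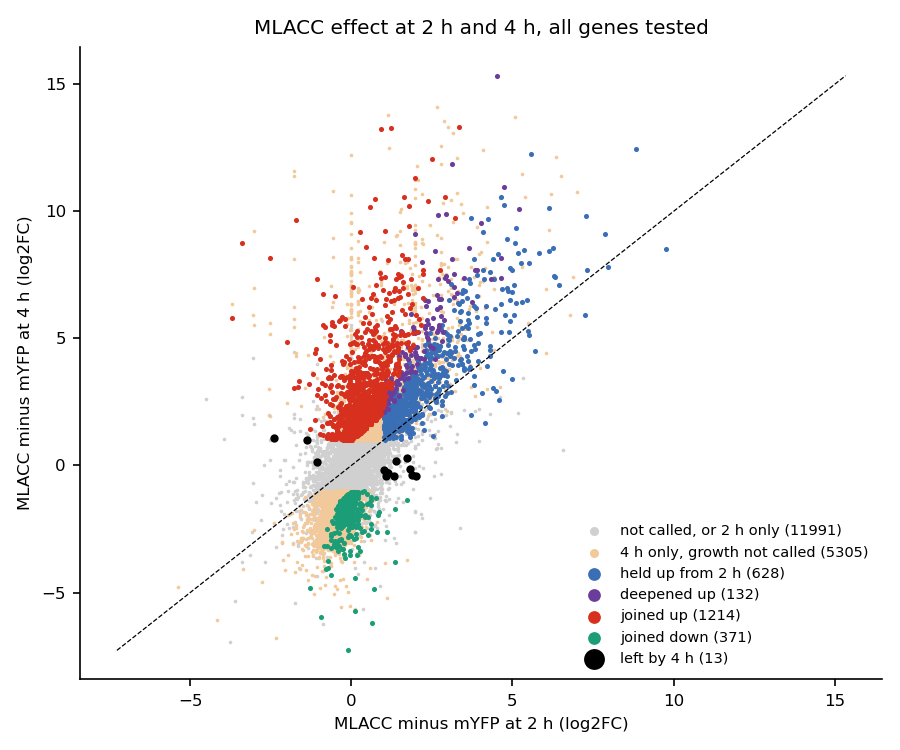
Log2 ratio of MLACC to mYFP at 2 h (x axis) and at 4 h (y axis) for the 19654 genes tested, each point 1 gene, coloured by class. The 1214 genes that joined upwards form a column near 0 on the x axis, and 557 of the 628 held upwards lie above the diagonal.

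Several libraries stood apart from their groups. MLACC 4 h replicate 1 was nearest to the mean of the MLACC 6 h libraries rather than to its own group. It had the lowest of the 3 MLACC values at 4 h in 1188 of the 1214 genes that joined upwards and the highest in 327 of the 371 that joined downwards. Its 18 light-harvesting genes summed to 63900 CPM, against 29800 and 34400 CPM in the other MLACC libraries at 4 h and 97600 to 112000 CPM in the mYFP libraries at 4 h. Its 16 cuticle and epidermis genes summed to 851 CPM against 370 and 382 CPM. mYFP 2 h replicate 3 was nearest to the mYFP 4 h mean and was the lowest of the 3 mYFP values at 2 h in 864 of the genes that joined upwards, and MLACC 2 h replicate 1 was the highest of its group in 886 of them. It is thus in doubt how well MLACC 4 h replicate 1 and mYFP 2 h replicate 3 stand for their labelled times. The labels were kept. Whether times were exchanged or induction was slower in a sample was not tested. CPM denotes counts scaled to a common library size with TMM factors, and replicate values are given below in the order 1, 2 and 3. Depth ran from 18199572 to 25146625 counts in genes. Because each sample is a bulk of leaf discs, fewer cells of a type and less RNA per cell cannot be told apart.

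The number of calls depended on single libraries. Without MLACC 4 h replicate 1, 2281 genes of 19843 tested passed upwards (11.5%) and 2767 downwards (13.9%); all 1396 upward genes and 403 of the 409 downward genes were among them. Of these, 1901 joined upwards, 302 deepened upwards and 2690 joined downwards. Leaving out another library lowered the upward count by more than 1.5 times in 4 cases. It became 912 without mYFP 2 h replicate 2, 919 without MLACC 2 h replicate 3, 880 without MLACC 4 h replicate 2 and 777 without MLACC 4 h replicate 3, of which 776 were among the 1396. The downward count fell by more than 1.5 times, to between 105 and 197, without any 1 of the 9 libraries other than MLACC 4 h replicate 1, mYFP 2 h replicate 3 and MLACC 2 h replicate 1. The 2 h count of 814 was 357 without mYFP 2 h replicate 3, 353 without MLACC 2 h replicate 1 and 470 without mYFP 2 h replicate 1. Each gene whose 12 values are written out below kept its call without any 1 of the 12 libraries unless stated, the call being growth or, for held genes, the effect at 2 h. MPK3, FMO1, UGT76B1 and PAD3, chosen after their values were seen, were not followed through the leave-outs.

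In most genes that joined, the MLACC line moved and the control line moved less. In 1113 of the 1214 genes that joined upwards (91.7%) the MLACC libraries changed more between 2 h and 4 h than the mYFP libraries did, against 70.9% of all genes tested. The same held for 329 of the 371 genes that joined downwards (88.7%). Within the MLACC line 2410 genes were called higher at 4 h than at 2 h (12.3%) and 1823 lower (9.28%), while the mYFP line gave 290 higher (1.48%) and 248 lower (1.26%). In 1097 of the genes that joined upwards the 3 MLACC libraries at 4 h lay above the other 9 libraries, a separation seen in 20.2% of all genes tested, and in 781 of them the lines overlapped at 2 h. In 303 of the genes that joined downwards the MLACC libraries at 4 h lay below the other 9, as in 17.1% of all genes. Because genes joined by calls on these same libraries, the shares in this paragraph are partly fixed by that choice. They describe the classes and are no separate evidence.

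Some signalling genes were already up at 2 h and were held. The group IX ERF factors, ethylene response factors that activate defence genes, had 6 of 12 members called at 2 h, all 6 held. For growth 0 were called by edgeR and by DESeq2, with 2 at an unadjusted p below 0.05, and the median growth over the list was 1.04, against 0.00 for all genes tested. ERF1A (AT4G17500), an activator of GCC-box genes, was 10.3, 9.68 and 3.29 CPM with mYFP and 184, 133 and 58.2 CPM with MLACC at 2 h, and 2.34, 1.40 and 12.8 CPM with mYFP and 107, 255 and 258 CPM with MLACC at 4 h. The lines did not overlap at either time, the 2 h effect was 4.01 ± 0.69 (SE; FDR = 0.000458), and growth was 1.21 ± 0.88 (SE; FDR = 0.283). At 2 h MPK3 (AT3G45640), a MAP kinase activated by immune receptors, stood at 190.3, 224 and 38.7 CPM in the mYFP line and 1202, 882 and 709 CPM in the MLACC line, and at 4 h at 52.3, 41.2 and 183 CPM and 418, 531 and 622 CPM. Its effect was 2.62 at 2 h and 2.505 at 4 h, a growth of -0.12 ± 0.67 (SE; FDR = 0.907). ERF13 and ERF15 were likewise held, with effects of 5.12 and 1.79 at 2 h and 6.40 and 3.08 at 4 h.

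Several genes of jasmonate synthesis and some of its repressors were also up at 2 h. Of 14 tested genes of jasmonate synthesis 8 were called at 2 h and 7 of these were held. Of 12 JAZ genes, which repress jasmonate-responsive transcription and are induced by it, 4 were called at 2 h, 3 were held and 6 were called at 4 h alone without a growth call. OPR3 (AT2G06050), the peroxisomal reductase of the pathway, was 43.0, 35.2 and 30.6 CPM with mYFP and 298, 438 and 179 CPM with MLACC at 2 h, and 41.9, 31.5 and 22.2 CPM with mYFP and 439, 1549 and 1315 CPM with MLACC at 4 h. The lines were separate at both times, with an effect of 3.07 ± 0.42 (SE; FDR = 4.86e-05) at 2 h and of 5.11 at 4 h; growth was 2.04 ± 0.55 (SE; FDR = 0.0102), just outside the threshold. At 2 h JAZ1 (AT1G19180) stood at 53.2, 74.5 and 15.2 CPM in the mYFP line and 809, 585 and 442 CPM in the MLACC line, and at 4 h at 12.2, 9.04 and 42.1 CPM and 360.5, 854 and 798 CPM. Its effect was 3.68 ± 0.60 (SE; FDR = 0.000274) at 2 h and its growth 1.30 ± 0.76 (SE; FDR = 0.184).

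Jasmonate synthesis also had 4 growth calls, 2 under several leave-outs and 8 without MLACC 4 h replicate 1. ACX1 (AT4G16760), an acyl-CoA oxidase of the beta-oxidation step, was 98.9, 79.6 and 68.5 CPM with mYFP and 149.6, 106 and 98.5 CPM with MLACC at 2 h, and 98.7, 96.9 and 97.8 CPM with mYFP and 479, 1528 and 1430.0 CPM with MLACC at 4 h. At 2 h LOX6 (AT1G67560), a lipoxygenase, stood at 16.1, 22.3 and 14.2 CPM in the mYFP line and 13.0, 22.3 and 16.1 CPM in the MLACC line, and at 4 h at 16.8, 15.6 and 16.03 CPM and 39.7, 104 and 88.9 CPM. Both were above the other 9 libraries in all 3 MLACC libraries at 4 h, with growth of 3.03 ± 0.43 (SE; FDR = 6.63e-05) for ACX1 and 2.30 ± 0.42 (SE; FDR = 0.000678) for LOX6. The calls of LOX2 and AOC3 were kept in 5 and 4 of the 12 leave-outs. Among the JAZ genes the only growth call was JAZ5, kept in 3; the list as a whole had 0 calls under 7 of the leave-outs and 4 without MLACC 4 h replicate 1.

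In salicylic acid synthesis 3 genes grew steeply and a pair of regulators was held from 2 h. Of the 8 genes of this list 3 were called for growth (3 or 4 under every leave-out), with a median growth of 1.63; 2 were held, CBP60G was called up and ICS2 down at 4 h alone, and EPS1 was not called. ICS1 (AT1G74710), isochorismate synthase, which makes the precursor of salicylic acid, was 15.8, 19.1 and 13.2 CPM with mYFP and 42.1, 32.7 and 25.3 CPM with MLACC at 2 h, and 20.1, 17.4 and 26.2 CPM with mYFP and 989, 1911 and 2232 CPM with MLACC at 4 h. PBS3 (AT5G13320), which conjugates isochorismate to glutamate, was 2.79, 3.45 and 2.61 CPM with mYFP and 14.1, 14.1 and 6.83 CPM with MLACC at 2 h, and 3.47, 1.99 and 1.95 CPM with mYFP and 659.8, 1603 and 1808 CPM with MLACC at 4 h. EDS5 (AT4G39030), the transporter that exports isochorismate from the plastid, was 8.93, 8.41 and 4.91 CPM with mYFP and 69.8, 38.3 and 26.8 CPM with MLACC at 2 h, and 3.34, 2.62 and 3.55 CPM with mYFP and 519.7, 1338 and 1431 CPM with MLACC at 4 h. In all of them the MLACC libraries at 4 h stood above the other 9 and the lines were already separate at 2 h, when ICS1 had an effect of 1.05 that missed the FDR threshold. Growth was 5.28 ± 0.40 (SE; FDR = 8.61e-08) for ICS1, 7.12 ± 0.57 (SE; FDR = 1.12e-07) for PBS3 and 5.83 ± 0.59 (SE; FDR = 2.59e-06) for EDS5, so that ICS1 joined and the other two deepened. SARD1 (AT1G73805), a transcription factor that activates ICS1, was 26.1, 34.1 and 7.21 CPM with mYFP and 272, 230.3 and 169 CPM with MLACC at 2 h, and 8.77, 8.32 and 20.8 CPM with mYFP and 367, 563 and 542 CPM with MLACC at 4 h. It was held, with effects of 3.31 at 2 h and 5.28 at 4 h and a growth of 1.97 ± 0.66 (SE; FDR = 0.0297), and so was CBP60A, a calmodulin-binding member of the same family, with 2.04 and 2.43.

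The 250 bases before the EDS5 start (chr4:18185187-18185436, plus strand, RefSeq TAIR10.1) are shown as those of a steep riser with letters of the W box, the word bound by WRKY factors; capitals mark TTGACT, 234 and 105 bases before it.
EDS5: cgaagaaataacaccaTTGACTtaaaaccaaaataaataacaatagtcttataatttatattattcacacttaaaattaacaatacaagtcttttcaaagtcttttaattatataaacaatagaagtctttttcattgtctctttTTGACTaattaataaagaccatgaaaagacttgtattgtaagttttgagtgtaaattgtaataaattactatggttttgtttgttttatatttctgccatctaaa

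Part of salicylic acid perception joined at 4 h. Of 16 genes for receptors, TGA partner factors and turnover 7 were called for growth, 3 without MLACC 4 h replicate 3 and 10 without MLACC 4 h replicate 1, with a median growth of 1.77. NPR4 (AT4G19660), a salicylic acid receptor that represses defence genes, was 10.07, 11.5 and 9.78 CPM with mYFP and 14.0, 7.96 and 8.54 CPM with MLACC at 2 h, and 9.29, 8.23 and 10.9 CPM with mYFP and 62.6, 103 and 119 CPM with MLACC at 4 h. NIMIN2 (AT3G25882), which binds NPR1, was 1.72, 2.58 and 1.22 CPM with mYFP and 8.60, 6.01 and 3.02 CPM with MLACC at 2 h, and 0.260, 0.271 and 0.780 CPM with mYFP and 68.0, 150.4 and 157 CPM with MLACC at 4 h. The MLACC libraries at 4 h were above the other 9 for both, and the lines overlapped at 2 h for NPR4. Growth was 3.36 ± 0.39 (SE; FDR = 1.41e-05) for NPR4 and 6.47 ± 0.82 (SE; FDR = 2.68e-05) for NIMIN2. NPR1, the receptor that activates defence genes, was instead held, with effects of 1.16 at 2 h and 1.83 at 4 h. Its 2 h call was kept in 9 of the 12 leave-outs and lost without mYFP 2 h replicate 1, mYFP 2 h replicate 3 or MLACC 2 h replicate 1. NPR3, DMR6 and UGT74F2, the last 2 of them enzymes that hydroxylate and glucosylate salicylic acid, were called with growth of 2.63, 2.74 and 2.23.

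FMO1 and UGT76B1, which act on N-hydroxypipecolate, a signal that primes systemic resistance, were low at 2 h and far higher with MLACC at 4 h. FMO1 (AT1G19250), the monooxygenase of the last step, was 0.0382, 0.164 and 0 CPM with mYFP and 0.383, 0.133 and 0 CPM with MLACC at 2 h, and 0, 0 and 0.0433 CPM with mYFP and 62.1, 261 and 283 CPM with MLACC at 4 h. UGT76B1 (AT3G11340), which glucosylates N-hydroxypipecolate, was 2.06, 0.123 and 0 CPM with mYFP and 2.90, 0.398 and 0.573 CPM with MLACC at 2 h, and 0.477, 0.588 and 0.130 CPM with mYFP and 309, 577 and 833 CPM with MLACC at 4 h. A fold change against the 2 h libraries rests on a few reads in most of them, so the values are given without one; both genes passed the growth test and the MLACC libraries at 4 h lay far above all others. AT5G52810, named SARD4, a reductase of pipecolate synthesis, was 39.5, 40.5 and 33.9 CPM with mYFP and 42.0, 29.98 and 27.2 CPM with MLACC at 2 h, and 21.4, 23.5 and 30.4 CPM with mYFP and 109, 154 and 232 CPM with MLACC at 4 h. Its lines overlapped at 2 h and its growth was 2.92 ± 0.39 (SE; FDR = 4.44e-05). PR1, a late marker of salicylic acid, had 0 counts in 9 libraries and 0.385, 1.55 and 11.1 CPM with MLACC at 4 h, and was not called for growth.

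EDS1, PAD4 and SAG101, lipase-like proteins that relay signals of TIR-type NLRs, and the helper NLRs had 4 growth calls among 9 genes, with a median growth of 2.03, but 3 of these calls were fragile. EDS1 grew by 2.09 ± 0.56 (SE; FDR = 0.00913), PAD4 by 2.90 ± 0.69 (SE; FDR = 0.00481) and SAG101 by 2.03 ± 0.49 (SE; FDR = 0.00512). These calls were kept in 4, 5 and 4 of the 12 leave-outs. The list had 1 call under 7 of them. AT5G66910, a helper NLR of the NRG1 family, was 4.35, 7.06 and 4.10 CPM with mYFP and 16.3, 12.03 and 12.03 CPM with MLACC at 2 h, and 4.86, 5.74 and 6.07 CPM with mYFP and 79.4, 152 and 136 CPM with MLACC at 4 h. Its growth was 3.09 ± 0.47 (SE; FDR = 0.00012). The helper NLR ADR1 was held at 1.23 and 1.66, a 2 h call kept in 9 of the 12 and lost without mYFP 2 h replicate 1, mYFP 2 h replicate 3 or MLACC 2 h replicate 1.

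Among WRKY factors the group III members split in time. At 2 h WRKY46 (AT2G46400) stood at 10.2, 20.8 and 1.26 CPM in the mYFP line and 256, 223 and 159.9 CPM in the MLACC line, and at 4 h at 1.04, 0.859 and 9.27 CPM and 448, 953 and 806 CPM. It was held, with effects of 4.31 at 2 h and 7.62 at 4 h. WRKY70 (AT3G56400), a factor downstream of salicylic acid, was 25.1, 18.7 and 19.7 CPM with mYFP and 79.5, 62.0 and 53.4 CPM with MLACC at 2 h, and 6.86, 5.79 and 9.19 CPM with mYFP and 578, 1101 and 1075 CPM with MLACC at 4 h. WRKY54 (AT2G40750), its close relative, went from 12.7, 10.5 and 3.85 CPM at 2 h to 144, 208 and 208 CPM at 4 h in the MLACC line, against 2.48, 6.36 and 4.91 CPM and then 2.08, 1.22 and 1.30 CPM in the mYFP line. Both joined, with growth of 5.36 ± 0.75 (SE; FDR = 6.08e-05) for WRKY70 and 5.94 ± 0.91 (SE; FDR = 0.000136) for WRKY54 and all MLACC libraries at 4 h above the other 9. In the mYFP line both were lower at 4 h than at 2 h in every library, by -1.54 and -1.57 on the log2 scale. Of 12 group III genes 4 were called for growth, 3 to 5 under the leave-outs, and of 8 group IIc genes 2, with 2 to 5.

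Jasmonate turnover had 5 of 9 genes called for growth, 3 to 6 under the leave-outs, with a median growth of 3.61. At 2 h edgeR called 0 of them, with 3 at an unadjusted p below 0.05, and DESeq2 called 2. These enzymes hydrolyse, hydroxylate or oxidise jasmonate and its isoleucine conjugate. IAR3 (AT1G51760), an amidohydrolase that cleaves the conjugate, was 27.7, 21.2 and 15.7 CPM with mYFP and 74.8, 75.8 and 35.0 CPM with MLACC at 2 h, and 24.5, 20.4 and 18.2 CPM with mYFP and 201, 1056 and 945 CPM with MLACC at 4 h. AT5G05600, one of the oxygenases that hydroxylate jasmonic acid, went from 44.8, 55.6 and 19.5 CPM at 2 h to 111, 351 and 308 CPM at 4 h in the MLACC line, against 60.6, 45.3 and 18.8 CPM and then 17.7, 7.82 and 2.21 CPM in the mYFP line. The MLACC libraries at 4 h were above the other 9 for both, and the lines overlapped at 2 h for AT5G05600. Growth was 3.61 ± 0.59 (SE; FDR = 0.000268) for IAR3 and 4.85 ± 0.85 (SE; FDR = 0.000455) for AT5G05600. The amidohydrolase ILL6 and the cytochrome P450 CYP94B3 were called in 5 and 6 of the 12 leave-outs.

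Ethylene synthesis differed by gene. ACS2 (AT1G01480), a synthase of the ethylene precursor ACC, was 0.916, 1.48 and 0.586 CPM with mYFP and 3.23, 2.88 and 2.76 CPM with MLACC at 2 h, and 0.260, 0.136 and 0.433 CPM with mYFP and 37.5, 129 and 98.2 CPM with MLACC at 4 h. ACO4 (AT1G05010), an ACC oxidase, was 347, 345 and 251 CPM with mYFP and 368, 274 and 312 CPM with MLACC at 2 h, and 149, 152 and 172 CPM with mYFP and 805, 1934 and 2567 CPM with MLACC at 4 h. Growth was 6.72 ± 0.78 (SE; FDR = 1.41e-05) for ACS2 and 3.48 ± 0.49 (SE; FDR = 6.72e-05) for ACO4. The lines overlapped at 2 h for ACO4, with all MLACC libraries at 4 h above the other 9 for both. ACO4 was also lower at 4 h than at 2 h in every mYFP library. The synthase ACS8 was held instead, at 3.42 and 3.99. Of the 18 ethylene genes 3 were called for growth (16.7%, against 7.1% of all genes tested). The call of the receptor EIN4 was kept in 4 of the 12 leave-outs.

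Phenylpropanoid enzymes, which turn phenylalanine into lignin precursors and other defence phenolics, joined in many members. Of 15 tested, 8 were called upwards and 1 downwards, with a median growth of 2.12; the upward count stayed between 8 and 12 under the leave-outs. COMT1 (AT5G54160), a methyltransferase of lignin precursors, was 202, 165 and 166 CPM with mYFP and 206, 176 and 179 CPM with MLACC at 2 h, and 147, 183 and 154 CPM with mYFP and 747, 1296 and 1517 CPM with MLACC at 4 h. C4H (AT2G30490), the cytochrome P450 of the second step, went from 226, 132 and 119 CPM at 2 h to 751, 1231 and 1145 CPM at 4 h in the MLACC line, against 98.2, 91.1 and 70.4 CPM and then 65.6, 70.7 and 56.7 CPM in the mYFP line. At 2 h CAD5 (AT4G34230), which makes the lignin alcohols, stood at 29.8, 20.6 and 10.05 CPM in the mYFP line and 19.2, 18.4 and 14.1 CPM in the MLACC line, and at 4 h at 23.6, 34.6 and 14.5 CPM and 157, 357 and 248 CPM. At 4 h the MLACC libraries were above the other 9 for each gene, and at 2 h the lines overlapped for COMT1 and CAD5. Growth was 2.81 ± 0.30 (SE; FDR = 6.14e-06) for COMT1, the smallest growth p of all genes in the list, 3.14 ± 0.37 (SE; FDR = 1.41e-05) for C4H and 3.61 ± 0.50 (SE; FDR = 5.59e-05) for CAD5. PAL1, the entry enzyme, grew by 3.41 ± 0.48 (SE; FDR = 6.46e-05), and CCOAOMT1, a second methyltransferase, by 2.12 ± 0.29 (SE; FDR = 4.85e-05). Exceptions included CCR2, held from an effect of 5.35 at 2 h, and 4CL3, an isoform tied to flavonoids, which joined downwards with a growth of -2.58. Among the others, 3 were called upwards and 1 downwards at 4 h alone without a growth call.

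Tryptophan synthesis, which supplies the indole of camalexin and indole glucosinolates, had 8 of 11 genes called for growth, 6 to 8 under the leave-outs, with a median of 2.15. TSA1 (AT3G54640), the alpha subunit of tryptophan synthase, was 34.6, 34.5 and 29.97 CPM with mYFP and 57.1, 46.3 and 39.9 CPM with MLACC at 2 h, and 37.4, 45.5 and 32.6 CPM with mYFP and 238, 655 and 459 CPM with MLACC at 4 h. At 2 h AT2G04400, indole-3-glycerol phosphate synthase, stood at 25.4, 26.1 and 25.2 CPM in the mYFP line and 51.4, 46.2 and 32.6 CPM in the MLACC line, and at 4 h at 32.2, 38.1 and 32.97 CPM and 272, 805 and 687 CPM. For both genes the lines were separate at 2 h without passing the test there, with effects of 0.53 and 0.76, and the MLACC libraries at 4 h were above the other 9. Growth was 3.02 ± 0.39 (SE; FDR = 3.42e-05) for TSA1 and 3.33 ± 0.42 (SE; FDR = 2.54e-05) for AT2G04400, with 3.39 for the beta subunit TSB2 and 2.30 for the transferase PAT1. Reads of the near-identical copies TSB1 and TSB2 may be split or lost in counting, as in other such pairs named here (PAF1 and PAF2, PBD1 and PBD2, UGT73B2 and UGT73B3, CNGC11 and CNGC12), since reads that mapped to several places were not counted.

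In camalexin synthesis, 3 of 9 genes were called for growth, with 1 without mYFP 2 h replicate 2 and 5 without MLACC 4 h replicate 1. The early steps were held: CYP79B2, which starts the indole branch, had effects of 3.80 at 2 h and 6.29 at 4 h, and GGP1, which trims the glutathione conjugate, 1.98 and 2.83. CYP71B6 (AT2G24180), which makes an indole carboxylic acid, was 29.3, 32.99 and 30.1 CPM with mYFP and 30.2, 27.0 and 28.4 CPM with MLACC at 2 h, and 34.4, 33.8 and 32.1 CPM with mYFP and 64.8, 147 and 144 CPM with MLACC at 4 h. Its lines overlapped at 2 h and its growth was 1.94 ± 0.35 (SE; FDR = 0.000565). PAD3 (AT3G26830), the last enzyme of camalexin synthesis, went from 7.997, 1.46 and 0.938 CPM at 2 h to 319, 1519 and 1564 CPM at 4 h in the MLACC line, against 0.458, 0.615 and 0 CPM and then 0.174, 2.40 and 1.43 CPM in the mYFP line. PAD3 grew by 6.52 ± 1.36 (SE; FDR = 0.00189), from mYFP values below 1 CPM at 2 h.

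Several detoxifying enzymes grew between 2 h and 4 h. Of 27 glutathione transferases 8 were called upwards (6 to 10 under the leave-outs) and 1 downwards, with a median growth of 2.48; 4 were called upwards at 2 h. GSTU19 (AT1G78380) was 162, 151 and 162 CPM with mYFP and 120.5, 135 and 143 CPM with MLACC at 2 h, and 169, 179 and 201 CPM with mYFP and 588, 1500.0 and 1723 CPM with MLACC at 4 h. At 2 h all MLACC values were below all mYFP values, with an effect of -0.26, and at 4 h the order was reversed and the MLACC libraries were above the other 9; growth was 3.05 ± 0.38 (SE; FDR = 2.50e-05). GSTU24 grew by 6.41 ± 0.85 (SE; FDR = 3.95e-05), GSTU7 by 2.98 ± 0.43 (SE; FDR = 8.23e-05) and GSTU1 by 4.79 ± 0.60 (SE; FDR = 2.50e-05). GSTU13, by contrast, was held, with effects of 1.13 and 1.16, a 2 h call kept in 10 of the 12 leave-outs. GSTU26 was the member that joined downwards, at -2.16.

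Of the 8 stress-induced UDP-glycosyltransferases, which attach sugars to phenolics, 5 were called for growth, 3 without mYFP 2 h replicate 1 and 6 without mYFP 2 h replicate 3 or MLACC 4 h replicate 1, with a median of 3.52. UGT73B2 (AT4G34135) was 15.1, 13.1 and 5.45 CPM with mYFP and 11.3, 3.58 and 6.98 CPM with MLACC at 2 h, and 3.38, 1.63 and 5.07 CPM with mYFP and 25.3, 35.9 and 49.7 CPM with MLACC at 4 h. The lines overlapped at 2 h, the MLACC libraries at 4 h were above the other 9, and growth was 4.08 ± 0.59 (SE; FDR = 7.72e-05), while the mYFP line itself changed by -1.74 between 2 h and 4 h. UGT75B1 (AT1G05560) went from 6.24, 5.84 and 10.4 CPM at 2 h to 20.9, 22.9 and 40.9 CPM at 4 h in the MLACC line, against 27.7, 14.6 and 16.1 CPM and then 11.98, 14.2 and 16.3 CPM in the mYFP line. It was called lower at 2 h, at -1.38 ± 0.29 (SE; FDR = 0.00236), and had an effect of 0.997 at 4 h. By the rule it left the response, with a growth of 2.38 ± 0.40 (SE; FDR = 0.000333). The 250 bases before the UGT73B2 start (chr4:16347435-16347684, minus strand) are shown as those of a joining gene with several W box words and no word of the calmodulin-binding CAMTA factors; capitals mark TTGACC and, on the other strand, AGTCAA and GGTCAA.
UGT73B2: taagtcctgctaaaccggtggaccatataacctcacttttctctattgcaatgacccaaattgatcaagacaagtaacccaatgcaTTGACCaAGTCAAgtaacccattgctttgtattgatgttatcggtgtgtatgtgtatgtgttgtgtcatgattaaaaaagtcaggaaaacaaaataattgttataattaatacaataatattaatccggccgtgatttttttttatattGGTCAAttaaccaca

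Kinases and oxidases were called at both times. Of 28 genes for the MAP kinase cascade, NADPH oxidases and calcium-dependent protein kinases, 13 were called at 2 h, 27 at 4 h, 11 were held and 12 were called for growth, with a median of 1.21. Over all genes tested the shares called upwards were 4.14% at 2 h, 21.4% at 4 h and 7.1% for growth. The growth count of the list was 4 without MLACC 2 h replicate 2, MLACC 2 h replicate 3 or MLACC 4 h replicate 3 and 15 without mYFP 2 h replicate 3. At 2 h MKK5 (AT3G21220), an activator of MPK3 and MPK6, stood at 26.3, 31.0 and 18.3 CPM in the mYFP line and 104, 71.0 and 72.9 CPM in the MLACC line, and at 4 h at 19.5, 19.7 and 23.4 CPM and 74.8, 99.5 and 94.7 CPM. CPK1 (AT5G04870), a calcium-dependent kinase, was 111, 144 and 61.1 CPM with mYFP and 497, 326 and 315 CPM with MLACC at 2 h, and 54.0, 35.5 and 68.0 CPM with mYFP and 175, 245 and 267 CPM with MLACC at 4 h. Both were held, with effects of 1.71 and 1.85 at 2 h and 2.10 and 2.13 at 4 h, and growth of 0.39 ± 0.32 (SE; FDR = 0.334) and 0.28 ± 0.39 (SE; FDR = 0.597).

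Members of the module of MPK4 joined, though not the kinase at its head. MPK4 (AT4G01370), the kinase at its end, was 52.0, 59.0 and 58.7 CPM with mYFP and 73.1, 61.6 and 67.9 CPM with MLACC at 2 h, and 46.2, 51.8 and 50.6 CPM with mYFP and 100.1, 157 and 193 CPM with MLACC at 4 h. MKK2 (AT4G29810), one of its activators, went from 67.3, 60.5 and 59.97 CPM at 2 h to 101, 183 and 191 CPM at 4 h in the MLACC line, against 47.6, 57.0 and 50.5 CPM and then 38.8, 46.5 and 44.6 CPM in the mYFP line. The lines were separate by small margins at 2 h and the MLACC libraries at 4 h stood above the other 9. Growth was 1.34 ± 0.25 (SE; FDR = 0.000863) for MPK4 and 1.59 ± 0.30 (SE; FDR = 0.000766) for MKK2. MEKK2, a kinase at the head of a MAP kinase cascade, grew by 1.17 ± 0.22 (SE; FDR = 0.000904) and the phosphatase MKP1, which restrains MPK3 and MPK6, by 1.15 ± 0.23 (SE; FDR = 0.00124). MEKK1, the kinase upstream of MKK1 and MKK2, was held, with effects of 1.46 and 2.15 and a growth of 0.69 (FDR = 0.139). The 250 bases before the MEKK1 start (chr4:5407321-5407570, minus strand) are shown as those of a held gene with a CAMTA word and no W box; capitals mark the overlapping CAMTA words AACGCG and ACGCGT, 51 and 50 bases before it.
MEKK1: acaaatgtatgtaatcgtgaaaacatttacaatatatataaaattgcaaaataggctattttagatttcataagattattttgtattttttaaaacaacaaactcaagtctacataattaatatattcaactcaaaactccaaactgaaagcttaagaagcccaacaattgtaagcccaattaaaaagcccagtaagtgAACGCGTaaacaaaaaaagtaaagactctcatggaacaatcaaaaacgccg

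The 26S proteasome, the complex that degrades ubiquitin-tagged proteins, rose in about as many subunits as did not pass. Of 38 tested, 37 had growth above 0, 19 were called and 26 passed the FDR alone, a rule passed upwards by 9.17% of all genes tested; the median growth was 1.00. At 2 h edgeR called 0 of them, with 2 at an unadjusted p below 0.05, DESeq2 called 0, and the effects lay between -0.27 and 0.28. RPT3 (AT5G58290), an ATPase of the regulatory particle, was 84.0, 92.0 and 87.8 CPM with mYFP and 90.4, 88.5 and 86.2 CPM with MLACC at 2 h, and 103, 115 and 101 CPM with mYFP and 233, 379 and 474 CPM with MLACC at 4 h. RPT2a (AT4G29040), another of these ATPases, was 86.5, 95.6 and 86.4 CPM with mYFP and 96.5, 97.7 and 99.6 CPM with MLACC at 2 h, and 108, 125 and 115 CPM with mYFP and 248.7, 350.5 and 441 CPM with MLACC at 4 h. PAA2 (AT2G05840), an alpha ring subunit of the core particle, went from 37.5, 42.1 and 38.6 CPM at 2 h to 129.5, 194 and 259 CPM at 4 h in the MLACC line, against 37.0, 43.5 and 39.5 CPM and then 53.3, 60.6 and 58.7 CPM in the mYFP line. All MLACC libraries at 4 h were above the other 9 for each gene, and among these libraries replicate 1 was the lowest and replicate 3 the highest. Growth was 1.76 ± 0.25 (SE; FDR = 7.91e-05) for RPT3, 1.45 ± 0.24 (SE; FDR = 0.000268) for RPT2a and 1.77 ± 0.26 (SE; FDR = 9.62e-05) for PAA2. Over the called subunits of both particles it ran from 1.02 to 1.86. The count was 12 without MLACC 4 h replicate 3 and 24 without MLACC 4 h replicate 1.

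The 250 bases before the RPT2a start (chr4:14312033-14312282, plus strand) are shown because TGGGC, a word chosen after seeing the data, recurs in promoters of this list. Capitals mark it, or GCCCA on the other strand, 75, 61 and 42 bases before the start.
RPT2a: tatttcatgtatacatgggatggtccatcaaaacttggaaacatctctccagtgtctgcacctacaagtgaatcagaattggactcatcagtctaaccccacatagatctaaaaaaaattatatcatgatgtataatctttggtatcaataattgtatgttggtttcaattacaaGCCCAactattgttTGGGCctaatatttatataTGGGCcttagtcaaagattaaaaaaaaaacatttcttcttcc

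Some other genes of protein quality control grew in the same interval. Of 16 cytosolic heat shock genes 4 were called for growth, 3 to 8 under the leave-outs, with a median of 2.73. HSP101 (AT1G74310), a disaggregase, was 7.06, 5.25 and 5.90 CPM with mYFP and 6.90, 9.64 and 7.50 CPM with MLACC at 2 h, and 12.6, 26.8 and 10.7 CPM with mYFP and 114, 198 and 179 CPM with MLACC at 4 h. BAG6 (AT2G46240), a co-chaperone, went from 1.97, 3.23 and 2.76 CPM at 2 h to 26.8, 58.5 and 44.5 CPM at 4 h in the MLACC line, against 1.79, 2.95 and 3.33 CPM and then 8.68, 11.2 and 8.71 CPM in the mYFP line. In the mYFP line BAG6 was itself called higher at 4 h, by 1.83, and HSP101 changed by 1.46 without passing. The MLACC libraries at 4 h stood above the other 9 for both; growth was 2.89 ± 0.52 (SE; FDR = 0.000583) for HSP101 and 2.19 ± 0.39 (SE; FDR = 0.000488) for BAG6. HSP70-2 deepened, from an effect of 3.19 to 6.62. Of 16 autophagy genes 3 were called (18.8%, against 7.1% of all genes tested), 3 to 6 under the leave-outs. They were led by ATG8A, the ubiquitin-like protein that coats autophagosomes, at 1.63 ± 0.22 (SE; FDR = 4.44e-05), and followed by ATG18A at 1.41 and ATG7 at 1.21. BI1 (AT5G47120), a suppressor of cell death in the endoplasmic reticulum, grew by 1.98 ± 0.28 (SE; FDR = 6.06e-05).

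Chaperones of the endoplasmic reticulum did not pass for growth: edgeR called 0 of 23, with 12 at an unadjusted p below 0.05, DESeq2 called 2, and 7 passed without mYFP 4 h replicate 2. Their median growth was 0.62. In this list 11 genes were called higher at 4 h than at 2 h within the mYFP line, so that the control itself moved. Within the MLACC line the same count was 15. Cytosolic ribosomal proteins had 2 calls upwards and 1 downwards among 60 genes and aminoacyl-tRNA synthetases 1 and 2 among 50.

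The list counts rest on the spread shared by all 30 wild-type libraries. With the 12 libraries alone, and with edgeR's glmTreat against a log2FC of 1, the 19 proteasome calls became 1 and 0 and the 12 kinase calls 0 and 0. Jasmonate turnover and the glycosyltransferases, with 5 calls each, both became 0 and 2. Salicylic acid synthesis had 3 and 3, phenylpropanoid enzymes 5 and 6, tryptophan synthesis 3 and 5 and glutathione transferases 3 and 6 upward calls.

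**Figure D2:**
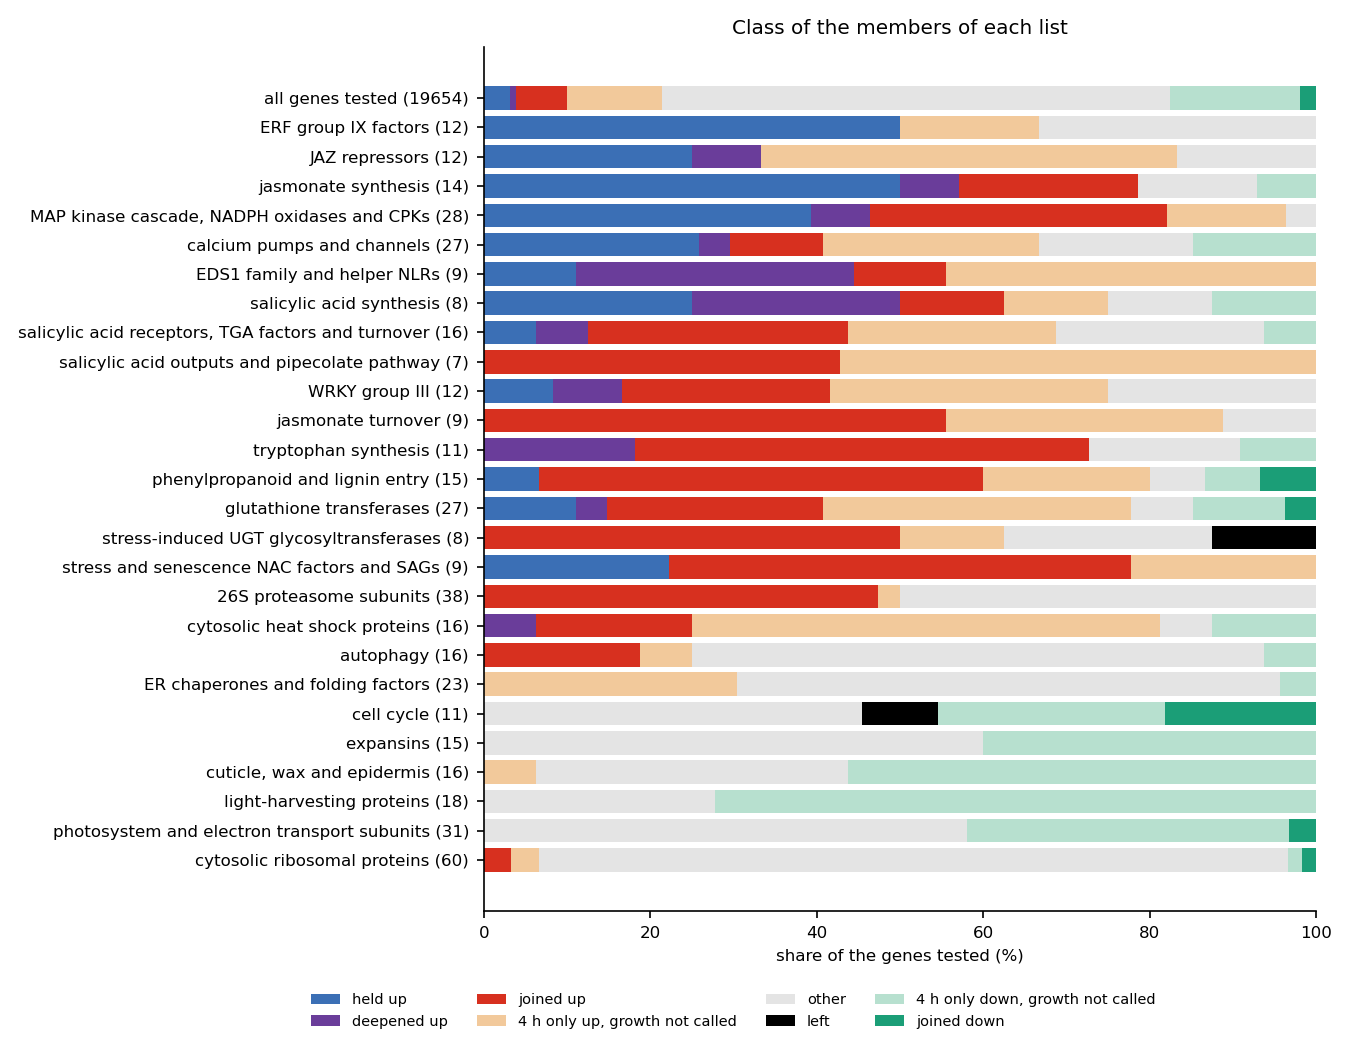
Share of the tested genes of each list in each class (x axis, percent; y axis, lists with the number of genes tested), the bars stacked by class. Held genes (blue) are the largest called class of the ERF group IX and jasmonate synthesis lists, and genes that joined upwards (red) that of the tryptophan, phenylpropanoid and proteasome lists.

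The largest growth among genes with counts in most libraries included genes outside these pathways. AIG1 (AT1G33960), a GTP-binding protein induced by avirulent bacteria, was 0.534, 1.89 and 0.180 CPM with mYFP and 4.44, 2.61 and 1.09 CPM with MLACC at 2 h, and 1.43, 0.633 and 0.303 CPM with mYFP and 641, 1348 and 1579 CPM with MLACC at 4 h. At 2 h GLR1.2 (AT5G48400), a glutamate receptor-like channel, stood at 0.687, 0.246 and 0.135 CPM in the mYFP line and 0.931, 0.310 and 0.313 CPM in the MLACC line, and at 4 h at 0.130, 0.226 and 0.173 CPM and 32.0, 68.7 and 111 CPM. Growth was 8.92 ± 0.999 (SE; FDR = 1.17e-05) for AIG1 and 8.14 ± 0.97 (SE; FDR = 1.73e-05) for GLR1.2, with the lines overlapping at 2 h and all MLACC libraries at 4 h above the other 9. The glutaredoxin GRXS13 grew by 7.47 ± 1.03 (SE; FDR = 5.73e-05), the Nudix hydrolase NUDT6 by 6.44 ± 0.81 (SE; FDR = 2.64e-05) and MAPKKK19 by 7.64 ± 1.06 (SE; FDR = 5.85e-05). NUDT7, a relative of NUDT6 that holds back defence, was held, at 2.95 and 4.19.

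Of 27 calcium pumps and channels 9 were called upwards at 2 h and 18 at 4 h, 7 were held and 4 were called for growth (3 to 7 under the leave-outs). Over all genes tested the shares called upwards were 4.14% at 2 h, 21.4% at 4 h and 7.1% for growth. ACA13 (AT3G22910), a calcium pump, was 4.62, 2.95 and 2.61 CPM with mYFP and 38.4, 27.7 and 33.8 CPM with MLACC at 2 h, and 0.868, 1.31 and 1.86 CPM with mYFP and 98.5, 164 and 188 CPM with MLACC at 4 h. It deepened, with a growth of 3.50 ± 0.59 (SE; FDR = 0.000314). Stress and senescence NAC factors had 5 of 9 called, 2 to 8 under the leave-outs. NAC032 (AT1G77450) went from 11.1, 7.21 and 7.09 CPM at 2 h to 23.8, 78.9 and 55.6 CPM at 4 h in the MLACC line, against 6.75, 6.44 and 1.85 CPM and then 4.82, 2.35 and 1.86 CPM in the mYFP line. Its growth was 3.38 ± 0.63 (SE; FDR = 0.000825). NAC013 and NDB2, a factor and a dehydrogenase of mitochondrial stress, grew by 2.12 ± 0.35 (SE; FDR = 0.000301) and 2.69 ± 0.48 (SE; FDR = 0.000553). Abscisic acid genes had 5 of 20 called for growth (25.0%, against 7.1% of all genes tested), but 0 without MLACC 4 h replicate 2 or MLACC 4 h replicate 3.

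**Figure D3:**
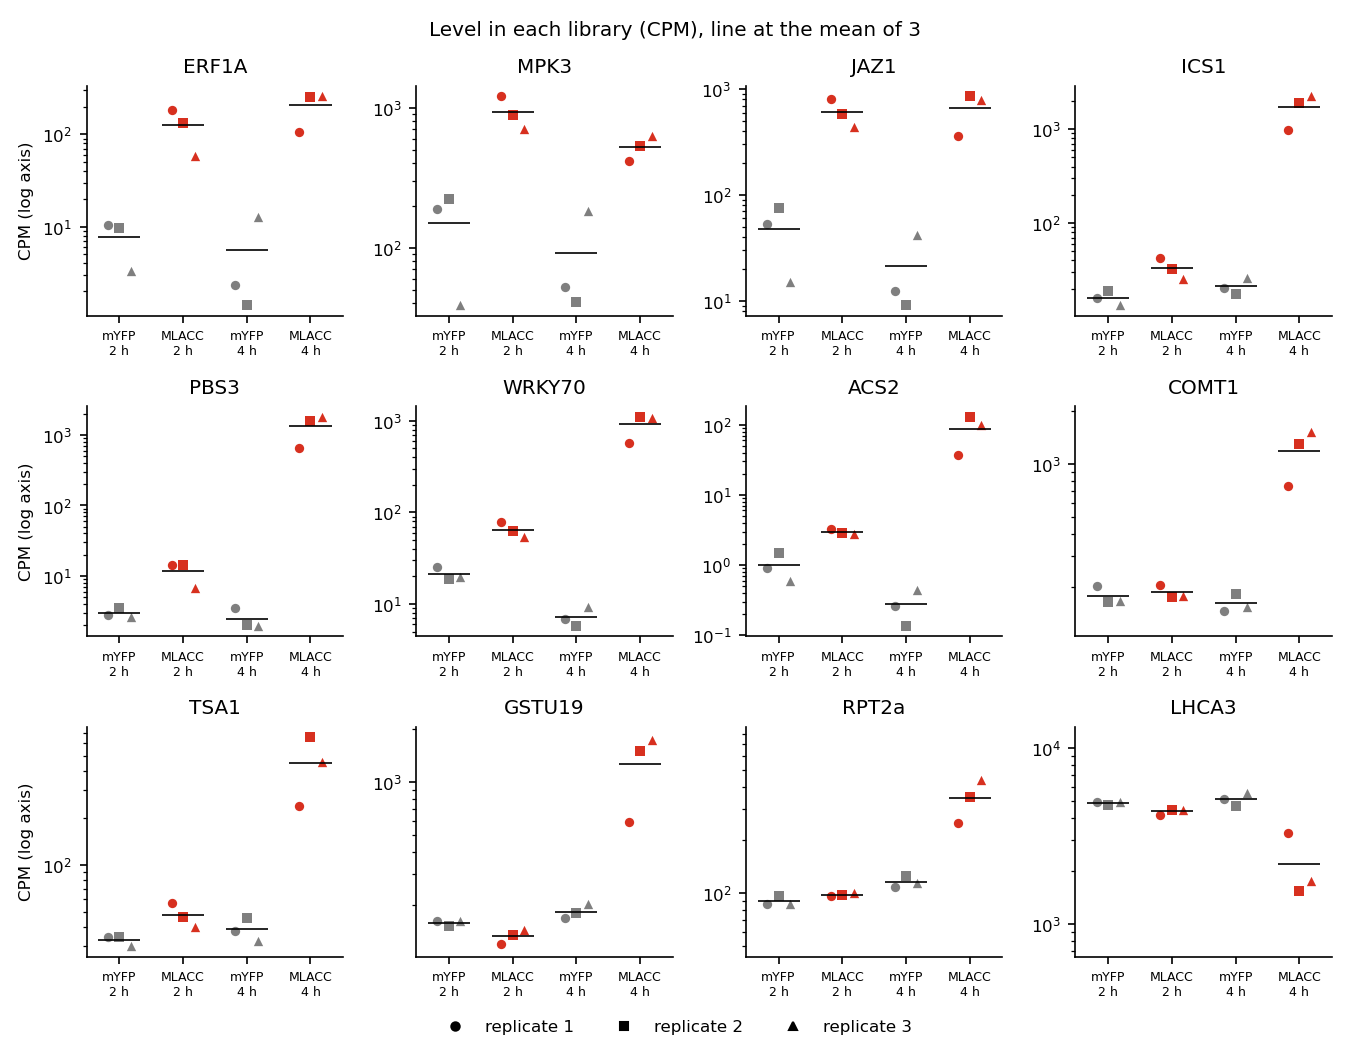
CPM (y axes, log scale) of 12 genes in each of the 12 libraries, by line and time (x axes), 1 point per library with a marker shape per replicate and a line at the mean of 3. ERF1A, MPK3 and JAZ1 are raised with MLACC at both times, whereas ICS1, WRKY70, COMT1 and RPT2a rise steeply with MLACC at 4 h. LHCA3 is lower with MLACC at 4 h, with replicate 1 between the other MLACC libraries and the control.

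Few genes left by the rule, which needs a growth call. The 49 genes called at 2 h but not at 4 h without that call had a median growth of -0.613. Of the 13 that left, 10 were up at 2 h and are described by 2 examples whose growth call was kept under every leave-out. The leave-outs of these examples followed that call and not the class. AT5G50915, a bHLH factor, was 24.6, 21.4 and 18.6 CPM with mYFP and 71.0, 84.9 and 79.9 CPM with MLACC at 2 h, and 44.9, 47.5 and 48.3 CPM with mYFP and 68.0, 23.1 and 17.4 CPM with MLACC at 4 h. AT1G19970, annotated as an ER lumen retention receptor, went from 13.1, 16.5 and 12.3 CPM at 2 h to 5.05, 3.74 and 3.04 CPM at 4 h in the MLACC line, against 4.08, 3.90 and 3.79 CPM and then 5.12, 3.98 and 4.07 CPM in the mYFP line. At 2 h the MLACC libraries were above the mYFP libraries for both, with effects of 1.87 and 1.83, and at 4 h the lines overlapped, with -0.37 and -0.15. Growth was -2.24 ± 0.48 (SE; FDR = 0.00237) for AT5G50915 and -1.99 ± 0.37 (SE; FDR = 0.00076) for AT1G19970. For AT5G50915, MLACC 4 h replicate 1 lay close to the MLACC libraries at 2 h and above all mYFP libraries at 4 h. The other MLACC libraries at 4 h lay near the mYFP libraries at 2 h and below all mYFP libraries at 4 h. The overlap of its lines at 4 h thus came from replicate 1. At 2 h CYCD3;3 (AT3G50070), a D-type cyclin, stood at 5.34, 4.27 and 6.76 CPM in the mYFP line and 10.7, 13.1 and 10.3 CPM in the MLACC line, and at 4 h at 16.5, 16.5 and 13.8 CPM and 15.6, 12.6 and 10.6 CPM. Here the mYFP line was called higher at 4 h than at 2 h, by 1.51, and reached the MLACC level. This growth call was kept in 9 of the 12 leave-outs and lost without mYFP 2 h replicate 2, MLACC 2 h replicate 2 or MLACC 4 h replicate 3. BB, a ubiquitin ligase that limits organ size, left with a growth of -1.72 ± 0.40 (SE; FDR = 0.00418), a call kept in 7 of them. XTH19, a cell wall xyloglucan enzyme, was still called at 4 h but had the opposite sign of growth, -2.00 (FDR = 0.0445), which did not pass.

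Genes that joined downwards included division and epidermal patterning genes. CYCB1;4 (AT2G26760), a mitotic cyclin, was 1.49, 1.68 and 2.88 CPM with mYFP and 1.75, 1.73 and 1.77 CPM with MLACC at 2 h, and 1.43, 1.81 and 1.39 CPM with mYFP and 0.144, 0.115 and 0.0966 CPM with MLACC at 4 h. ATK1 (AT4G21270), a spindle kinesin, went from 1.42, 1.64 and 1.46 CPM at 2 h to 0.385, 0.0575 and 0.0483 CPM at 4 h in the MLACC line, against 1.37, 1.48 and 1.80 CPM and then 2.17, 1.76 and 1.99 CPM in the mYFP line. At 2 h ERL2 (AT5G07180), a receptor kinase of stomatal patterning, stood at 10.6, 12.1 and 20.6 CPM in the mYFP line and 6.85, 9.60 and 8.80 CPM in the MLACC line, and at 4 h at 28.6, 30.5 and 30.8 CPM and 3.85, 0.690 and 0.773 CPM. The MLACC libraries at 4 h were below the other 9 for each gene, and the lines overlapped at 2 h for CYCB1;4 and ATK1. Growth was -3.44 ± 0.63 (SE; FDR = 0.000643) for CYCB1;4, -3.47 ± 0.68 (SE; FDR = 0.00123) for ATK1 and -3.29 ± 0.62 (SE; FDR = 0.000905) for ERL2. In the MLACC libraries at 4 h, 1 count equals 0.048 to 0.057 CPM. The values of CYCB1;4 and ATK1 there rest on few reads, so the size of their fold changes is uncertain. The pectate lyase AT1G67750 fell by 5.04 on the log2 scale, and in the mYFP line it was higher at 4 h than at 2 h by 1.503. Of the 11 cell cycle genes listed, 3 were called downwards for growth, of which 2 joined downwards and 1 left. The count was 0 without mYFP 2 h replicate 2, MLACC 2 h replicate 2 or MLACC 4 h replicate 3. CYCB1;4 and ATK1, which kept their calls without any of these libraries, were not among the 3.

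Photosynthesis, growth and epidermis lists had negative medians but few growth calls in the 30 wild-type libraries while MLACC 4 h replicate 1 was included. With all 60 libraries in 1 fit, which holds that library too, 6 light-harvesting, 7 photosystem and 6 chlorophyll synthesis genes were called downwards for growth. With MLACC 4 h replicate 1 included, the 4 h effect itself was called downwards for 17.6% of all genes tested. It was so called in 13 of 18 light-harvesting, 13 of 31 photosystem and 12 of 17 chlorophyll synthesis genes. The same held for 10 of 20 Calvin cycle, 9 of 16 cuticle, 6 of 15 expansin and 5 of 18 auxin genes. The 18 light-harvesting genes had a median growth of -1.30 with 0 called by edgeR and 15 called without that library; 17 of the 18 were below 0, 15 at an unadjusted p below 0.05, and DESeq2 called 0. LHCB6 (AT1G15820), an antenna protein of photosystem II, was 4376, 4371 and 4795 CPM with mYFP and 3850.0, 4383 and 4016 CPM with MLACC at 2 h, and 4479, 4552 and 5169 CPM with mYFP and 2674, 1016 and 1292 CPM with MLACC at 4 h. The MLACC libraries at 4 h lay below the other 9, replicate 1 closest to them, and growth was -1.37 ± 0.47 (SE; FDR = 0.0331). Over all genes tested the downward share for growth was 2.08% with MLACC 4 h replicate 1 and 13.9% without it. In the same way, and with the genes at an unadjusted p below 0.05 given last, chlorophyll synthesis went from 0 to 10 of 17 downward calls (12). Expansins, which loosen cell walls, went from 0 to 8 of 15 (6) and cuticle and epidermis genes from 0 to 10 of 16 (8). The Calvin cycle went from 0 to 7 of 20 (9) and auxin genes from 0 to 7 of 18 (7). DESeq2 with all 12 libraries called 2, 3, 1, 0 and 1 genes of these lists downwards. Aliphatic glucosinolate synthesis went from 1 to 7 of 15 and photosystem subunits from 1 to 12 of 31. Plastid-encoded and mitochondrion-encoded genes gave 0 calls with edgeR and DESeq2, with 1 and 2 genes at an unadjusted p below 0.05 and medians of 0.14 over 88 and 0.52 over 27 genes. In polyadenylated RNA such transcripts are captured poorly.

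**Figure D4:**
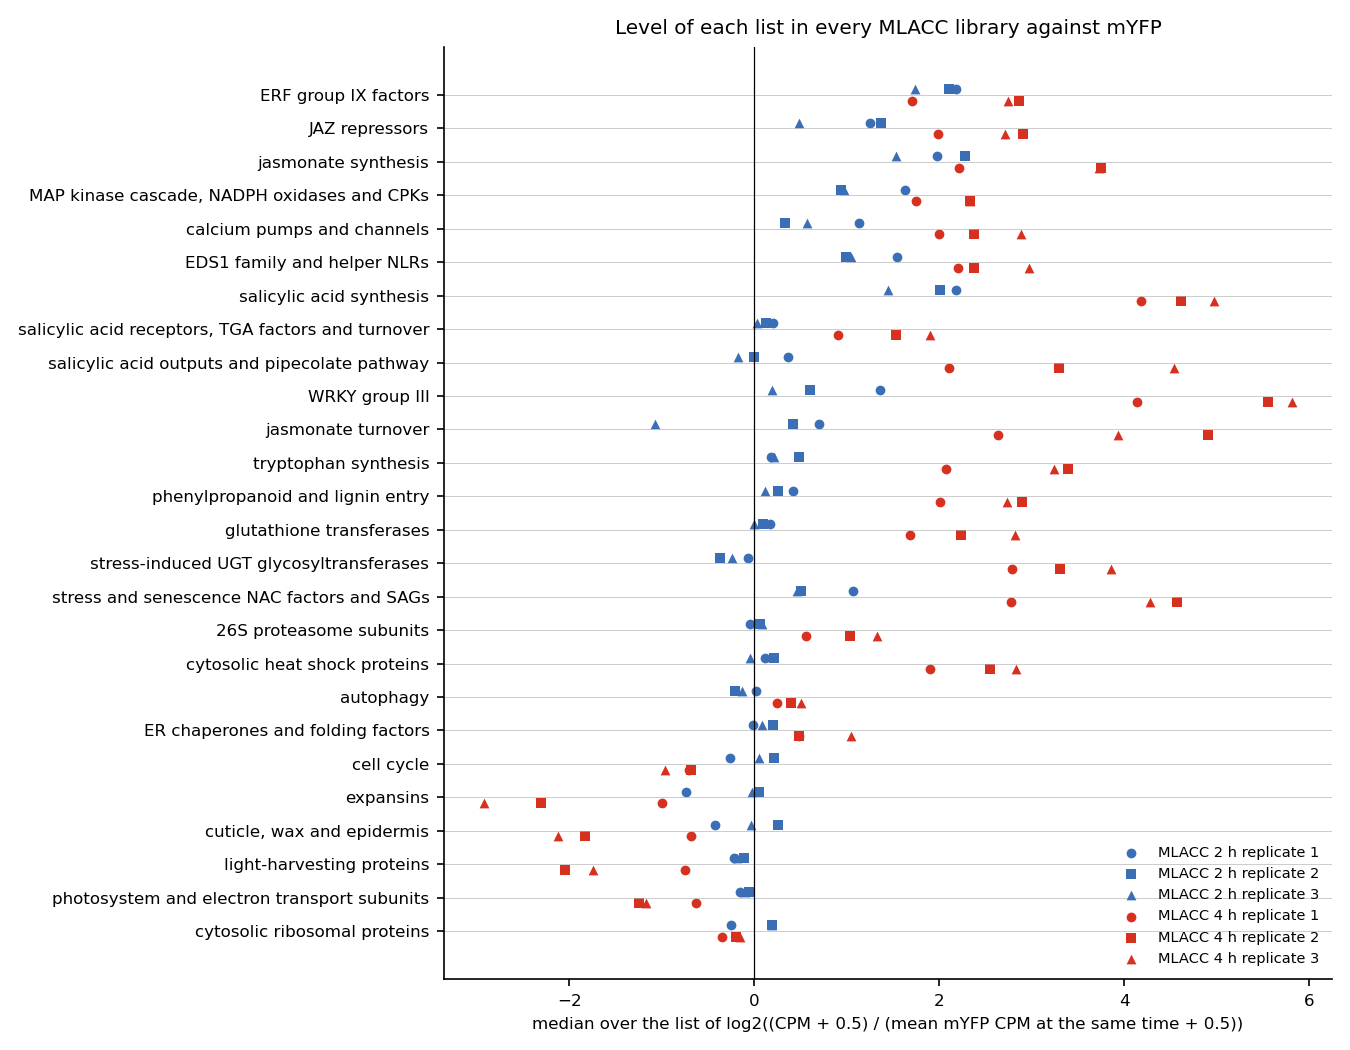
Median over the genes of each list (y axis) of the log2 ratio of each MLACC library to the mean of the mYFP libraries at the same time, with 0.5 CPM added to both (x axis), 1 point per MLACC library, blue at 2 h and red at 4 h. At 4 h replicate 1 (red circles) sits nearer to 0 than replicates 2 and 3 in the light-harvesting, expansin and epidermis lists and in the rising lists of jasmonate and tryptophan genes.

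The same growth was computed in ppsdes, which lacks functional PEN2, PAD4, SAG101, DDE2 (AOS, of jasmonate synthesis), EIN2 (of ethylene signalling) and SID2 (ICS1). In a fit of all 60 libraries, 16 genes were called upwards in ppsdes (0.0803% of 19929 tested) and 0 downwards, with 1389 genes at an unadjusted p below 0.05; DESeq2 called 36 and 1. Of the 16, 10 had deepened, 4 had joined and 2 had been held in wild type. The difference of growth between backgrounds, tested in itself, was called higher in wild type for 159 genes (0.798%) and lower for 14 (0.0702%). Of the 159, 147 had joined upwards, an overlap partly fixed because both calls used the same wild-type libraries. The counts of 159 and 14 were 5 and 0 with the 24 libraries alone, 309 and 48 with DESeq2, and 93 to 686 and 2 to 1297 over the leave-outs. They were 686 and 1297 without MLACC 4 h replicate 1 and the first was 99 without ppsdes 4 h replicate 2, 104 without MLACC 2 h replicate 3 and 93 without MLACC 4 h replicate 3. The 16 upward calls in ppsdes became 6 to 9 without ppsdes 2 h replicate 2 or 3, ppsdes 4 h replicate 1 or 3, MLACC ppsdes 2 h replicate 1 or 3 or MLACC ppsdes 4 h replicate 3. They became 30 without MLACC ppsdes 2 h replicate 2. Transgene line, control line and mutations differ together between the backgrounds and cannot be told apart. The paper also reports less MLACC protein at steady state in the sextuple mutant. It could not exclude that this contributed to the weaker correlations seen there. The part of protein level in the counts above was not tested.

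Called differences were frequent in the phenylpropanoid and tryptophan lists. Of the 15 phenylpropanoid genes 8 had a called difference, with a median growth of 2.12 in wild type and -0.13 in ppsdes, against medians of 0.00 and -0.04 over all genes. In ppsdes COMT1 was 201, 177 and 145 CPM in the control and 184, 184 and 169 CPM with MLACC at 2 h, and 234, 235 and 189 CPM and 235, 266 and 185 CPM at 4 h. The lines overlapped at both times, ppsdes growth was 0.02 and the difference 2.78 ± 0.38 (SE; FDR = 1.94e-05). The difference was 7.25 ± 1.13 (SE; FDR = 8.99e-05) for ACS2, 3.84 ± 0.58 (SE; FDR = 5.12e-05) for TSB2, 3.08 ± 0.43 (SE; FDR = 2.03e-05) for GSTU19 and 3.09 ± 0.46 (SE; FDR = 5.12e-05) for ACX1. For ICS1 it was 6.27 ± 0.64 (SE; FDR = 3.96e-08), and ICS1 is the gene mutated in sid2-2, so its transcripts in ppsdes come from a mutated gene. Tryptophan synthesis had 5 of 11 called differences, with medians of 2.14 and 0.06. These 5 and the 8 phenylpropanoid genes had all been called upwards for growth in wild type. Both calls used the same wild-type libraries, so this overlap is partly fixed. The genes given here were also named by their wild-type growth, which enters the difference.

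PBS3 and EDS5 grew in both backgrounds, and the proteasome list had no called difference. PBS3 and EDS5 were called in ppsdes too, with growth of 4.68 and 3.30. Their differences were 2.43 (FDR = 0.0658) and 2.52 (FDR = 0.0891). The proteasome list had 0 called differences of 38 by edgeR, with 27 at an unadjusted p below 0.05, and medians of 1.00 and 0.28; its 19 subunits called in wild type had ppsdes growth between 0.14 and 0.79. Genes that had joined upwards had a median of 1.86 in wild type and 0.27 in ppsdes, and those that had deepened 2.59 and 1.20. These classes and the 19 subunits were picked by wild-type growth, which by itself tends to raise the wild-type medians above those of ppsdes. The values describe the classes and are no test of a difference.

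**Figure D5:**
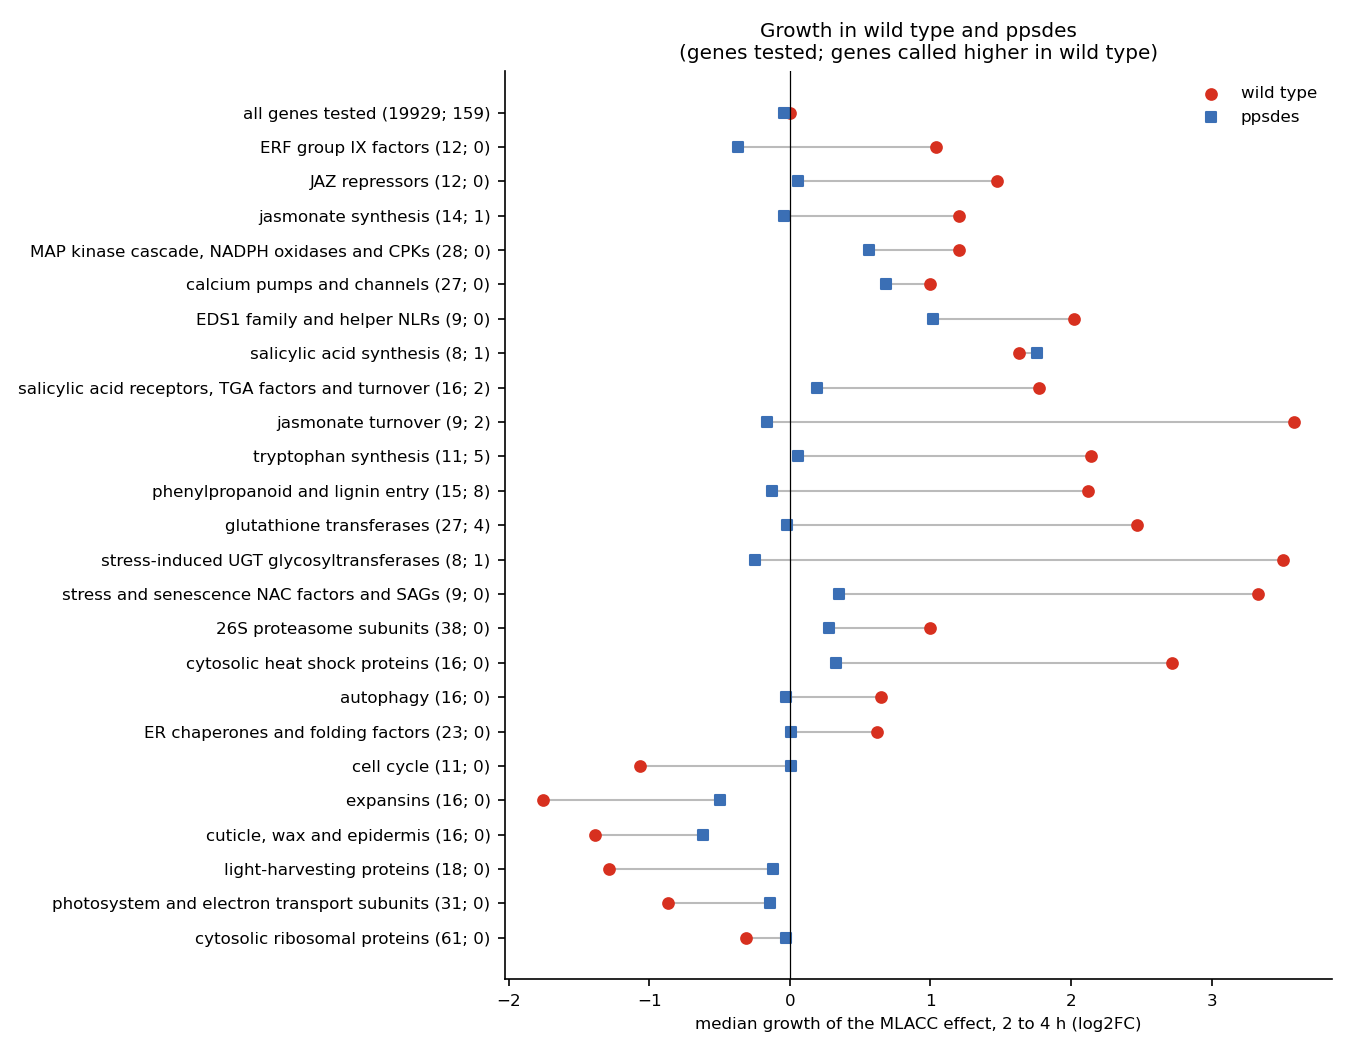
Median growth of each list (y axis, with the genes tested and those called higher in wild type) on the log2 scale (x axis) in wild type (red circles) and ppsdes (blue squares), from the fit of all 60 libraries. The phenylpropanoid medians are 2.12 and -0.13 and the tryptophan medians 2.14 and 0.06, while those of salicylic acid synthesis are 1.63 and 1.76.

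Promoters, taken as 250 bases before to 50 bases after the annotated start of 19521 tested genes, were searched on both strands. The CAMTA words searched were ACGCGT and CGCGTT, which may overlap, and the pair ACGCGG and CCGCGT. One of them was in 17.7% of promoters of genes held upwards, 14.4% of those deepened, 6.43% of those joined upwards and 3.51% of those joined downwards, against 6.40% of all, and in 245 of 2232 promoters (about 11%) of genes called upwards at 4 h alone without a growth call. A W box (TTGACC or TTGACT) was in 45.2%, 49.2%, 42.7%, 26.5% and 45.0% of the same classes, against 32.9% of all. Thus the CAMTA share was highest in the classes already up at 2 h, above that of all promoters in the class called at 4 h alone and close to it in genes that joined, whereas the W box share was above that of all promoters in these upward classes. MEKK1, printed above, is an example of a held gene with a CAMTA word, and EDS5 and UGT73B2 of rising genes with the W box alone. The heat shock element, GAA, TTC and GAA each 2 bases apart, was in 31.2% of the cytosolic heat shock list against 0.553% of all. TGGGC was in 60.5% of proteasome promoters against 29.7% of all, in 13 of the 19 subunits called and 10 of the 19 not called. TGGGC was also in 68.3% of promoters of cytosolic ribosomal proteins, which had few growth calls. These shares are descriptions without a test. A match of letters describes a promoter and does not show that a factor bound it.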

How the data were processed

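RNA sequencing libraries of polyadenylated leaf RNA were aligned by the authors with TopHat2 2.0.10 to the TAIR10 genome after quality control with FastQC 0.11.2, and HTSeq gave the deposited raw counts per gene, 1 table of 30 libraries per background. Versions were taken from the submitters' processing notes where they give them. Reads that mapped to several places were not counted. They made up 6.46 to 12.7% of the reads in the summary lines of the 12 libraries, reads outside genes 1.33 to 2.26% and ambiguous reads 0.465 to 0.620%; these lines were left out of library sizes and tests. The TruSeq RNA v2 kit does not mark strand, so reads of overlapping genes cannot be told apart. The sources used here do not state HTSeq's settings.

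Counts were tested with edgeR 4.0.16 (R 4.3.3, limma 3.58.1): low genes were removed with filterByExpr, libraries scaled by TMM, and quasi-likelihood models fitted with 1 mean per group over the 30 wild-type libraries, or over all 60 libraries for the comparison with ppsdes. Calls needed an FDR below 0.01 and a log2FC above 1 in size, the thresholds of the study. DESeq2 1.42.0 and the other alternatives are named in the closing section. Nothing in the labels ties replicates to separate cultures beyond the separate plants of each sample, so p-values measure the spread between these samples.

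The gene lists (64 lists, 1303 members) and the members described were chosen with earlier results of these data known. Named genes had at least 1 count in all 12 libraries and were, by rule, those of largest growth in each class (10 joined up, 6 deepened up, 10 joined down and up to 10 left), the up to 4 called members of each list with the smallest growth p, otherwise the member with the smallest p, and the up to 2 held members with the smallest p at 2 h. MPK3, MEKK1, PAD3, FMO1, UGT76B1, PAL1, NPR3, DMR6, UGT74F2, 4CL3, GSTU26, PR1, LHCA3, ICS2, EPS1 and CBP60G were named after their values were seen, as defining genes of a pathway. Promoters were read from the RefSeq TAIR10.1 genome and annotation, from 250 bases before to 50 bases after each start; the sequences printed are the 250 bases before it.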

Additional observations from a re-analysis of the deposited data

Results flagged for a closer look

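The growth of the MLACC effect differed between wild type and ppsdes by a test of the difference itself in 159 genes that were higher and 14 that were lower in wild type. Among the named genes with the smallest p for this difference, ICS1 differed by 6.27 ± 0.64 on the log2 scale (SE; FDR = 3.96e-08, edgeR), and ICS1 is mutated in ppsdes. COMT1 differed by 2.78, GSTU19 by 3.075, ACX1 by 3.09 and TSB2 by 3.84. ACS2 differed by 7.25 ± 1.13 (SE; FDR = 8.99e-05). CCOAOMT1 differed by 2.20 and AT2G04400 by 3.13. Growth of these genes in ppsdes lay between -0.997 for ICS1 and 0.19 for AT2G04400. These genes were named by their wild-type growth, which enters the difference, so its size in them is partly fixed by that choice.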

How the results depend on the processing

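No named gene turned direction under any alternative run, while the number of genes called moved. Of 5570 values of named genes and list counts under the alternatives, 1018 were no longer past the threshold in the same direction, 48 newly passed it and 71, all of them list counts, moved by more than 1.5 times. For growth, 1396 genes up and 409 down became 201 and 32 with the 12 libraries alone, 1882 and 869 with DESeq2, 261 and 6 when edgeR's glmTreat tested against a log2FC of 1, 1802 and 553 by FDR alone, 1341 and 259 without TMM factors, 1065 and 507 with upper-quartile factors, 1450 and 361 with DESeq2 size factors and 1268 and 307 without a filter. With all 60 libraries in 1 fit, an alternative chosen after seeing the data, they were 1557 and 1104. Upper-quartile factors moved the median growth of all genes by -0.18 and the share of upward calls from 77.3 to 67.7%. The cause of these shifts was not tested, except that the 12-library fit estimates the spread from fewer samples.

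The classes followed: joined up, deepened up and joined down were 192, 6 and 28 with the 12 libraries, 1551, 241 and 813 with DESeq2 and 247, 11 and 4 with glmTreat; joined down was 237 without TMM factors and 1063 with all 60 libraries. Genes that left were 2 with the 12 libraries, 24 by FDR alone and 0 with glmTreat. At 2 h, 814 up and 23 down became 75 and 3 with the 12 libraries and 123 and 2 with glmTreat, and the downward count was 56 with DESeq2, 37 without TMM factors, 63 with upper-quartile factors and 60 by FDR alone. At 4 h glmTreat gave 2536 up and 694 down. The difference from ppsdes, 159 higher and 14 lower, became 5 and 0 with the 24 libraries alone, where 2 genes grew in ppsdes, and 309 and 48 with DESeq2, which called 36 up and 1 down in ppsdes.

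Over the fits that left out 1 library, growth gave 777 to 2281 genes up and 105 to 2767 down, joined up 672 to 1901, deepened up 45 to 302, joined down 84 to 2690 and left 6 to 14. The effect gave 353 to 956 up and 6 to 45 down at 2 h, and 3742 to 4642 up and 2302 to 4341 down at 4 h. The difference from ppsdes gave 93 to 686 higher and 2 to 1297 lower, and growth in ppsdes 6 to 30 up and 0 to 3 down. Without both MLACC 4 h replicate 1 and mYFP 2 h replicate 3, growth gave 2682 up and 2742 down, joined up 2301, deepened up 262, joined down 2635 and the effect at 2 h 51 down.

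The replicate numbers shared by the groups did not pair the samples: same-numbered samples correlated in their deviations at -0.533 to 0.418 (6 of 18 above 0.1) and other-numbered ones at -0.529 to 0.536 (15 of 36). With the number as a replicate block in all 30 libraries growth gave 1406 up and 496 down, of which 1328 and 387 were called without it, and the ppsdes difference gave 187 and 18, with 19 called in ppsdes. With the block in the 12 libraries alone, edgeR called 0 genes up and 0 down for growth, with 7655 at an unadjusted p below 0.05, so that 0 joined, deepened or left, and 3 up and 0 down at 2 h.

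Genes near 0 counts carry the widest errors, and each group had 3 libraries. MLACC and ppsdes each rest on 1 line or mutant stock.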
